A study of Mus musculus with 6 samples.

Results

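The 36 genes described here encode the machinery that brings proteins into mitochondria, cuts their targeting signals and folds them. They were chosen by name from a list of import, processing and folding genes, and all 36 were found among the 51789 genes of the deposited count table. Mouse bone marrow neutrophils, taken with Ly6G beads to a stated purity above 95%, gave the RNA. Lexogen QuantSeq chemistry was used, in which each read is a tag from near the 3′ end of a polyadenylated transcript. Of the 6 samples, 3 were labelled knockout (KO) and 3 wild type (WT, the control) for Snph, the gene of syntaphilin, which anchors mitochondria to microtubules. The sources used here state no strain, age, sex or deleted stretch of Snph. They also do not say that each sample is its own animal, and p-values therefore rest on a sample-to-sample spread that may be technical.

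Nearly all mitochondrial proteins are made in the cytosol and imported. The TOM complex is the gate of the outer membrane, the SAM complex inserts barrel proteins there, small TIM chaperones cross the intermembrane space, TIM22 and TIM23 serve the inner membrane, and a motor built around mitochondrial Hsp70 pulls precursors into the matrix, where a peptidase trims them and the Hsp60 chaperonin folds them. Mature neutrophils are known for few mitochondria and for energy drawn mainly from glycolysis.

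No import or chaperone gene passed the test between the groups, and the most abundant of them were the best bounded. By edgeR's quasi-likelihood test with Benjamini-Hochberg adjustment over 10397 genes, 0 of the 36 genes had an adjusted p under 0.05, where 1.03% of all tested genes did (0.24% higher and 0.789% lower in KO-labelled libraries). At an unadjusted p under 0.05 there were 4 of 36, or 11.1%, all lower, and over all tested genes 11.4% (5.03% higher and 6.35% lower). DESeq2 and limma-voom also called 0 of the 36. The libraries of the groups did not overlap for 7 of the 36 genes, or 19.4%, against 16.8% of all tested genes, so both shares lay near the background. The median log2 fold change, KO over WT, was -0.075 for the 36 genes (14 above 0 and 22 below) and 0.006 for all tested genes. With scaling to total counts only, these medians were -0.18 and -0.10.

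Facts of the libraries bear on how far these values carry. Total counts were 7179569 to 9165218 in the KO-labelled and 7018388 to 9664381 in the WT-labelled libraries and 1 count was worth 0.103 to 0.142 CPM (counts scaled to a common library size). Snph itself went against the labels, with 5, 2 and 8 counts in KO 1, 2 and 3 and 0 counts in each WT-labelled library. Directions below rest on the labels as they stand. On the first principal component KO 3 (-10.4) lay among the WT-labelled libraries (-17.2 to -6.20), away from KO 1 and KO 2 (22.9 and 23.6). Without KO 3, 0 of the 36 genes were called and their median was -0.068. Mature neutrophil markers summed to 328500 to 350300 CPM in KO-labelled and 287500 to 308800 CPM in WT-labelled libraries. S100a8 and S100a9 held most of these sums. Of the 15 markers 8 (53.3%) were higher in the KO-labelled libraries without overlap, against 7.48% of all tested genes. Others, such as Ltf (log2 -0.01) and Mmp8 (0.06), overlapped. Of 14 macrophage markers 12 were called lower in the KO-labelled libraries, against 0.789% of all tested genes. All 14 were lower there without overlap, against 9.32% of all tested genes. The summed level of the 14 was 831 to 998.5 CPM in the KO-labelled libraries, against 1577 to 1667 CPM in the WT-labelled libraries. In bulk RNA, fewer cells of a type and less RNA per cell cannot be told apart.

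Before the values, a short stretch of regulatory sequence is shown because it joins a pair of the genes. Hspd1 (Hsp60) and Hspe1 (Hsp10), which form the matrix chaperonin, lie head to head on chromosome 1. The 30 bases at chr1:55088053-55088082 (GRCm38.p6, plus strand, reading towards Hspe1) end 66 bases before the RefSeq start of Hspe1, and by GENCODE they lie in the 5′ exon of an alternative Hspd1 transcript. Capitals mark matches to heat shock element letters, TTCNNGAA and GAANNTTC, which run into each other here:
Hspd1-Hspe1: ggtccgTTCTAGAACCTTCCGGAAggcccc

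Of the 36 genes, 32 had a RefSeq promoter window, which spans 250 bases before a start and 50 from it on (GRCm38.p6); Tomm7, Tomm40l, Timm21 and Hspa9 had none. The letters CCGGAAG or their reverse complement, the core bound by GABP and other ETS factors, stood in the windows of 15 of these 32 genes (46.9%), against 22.5% of 7833 tested genes with a window and 9.9% of 27025 genes. TTCNNGAA, which is its own reverse complement, stood in 7 of 32 (21.9%), against 8.5% of the tested genes, and in 4 of those 7 genes it overlapped a CCGGAAG. Hspd1 and Hspe1 are counted as separate genes in each of these numbers, though their matches lie in the same stretch, printed above. The same holds for GAANNTTC below. GCGCATGC, read on both strands as the core bound by NRF1, a factor known to drive nuclear genes of mitochondria, was found for Grpel1 and Timm13, 6.2% of the 32 genes and 6.4% of the tested genes. TGATGNAA on both strands, a letter pattern of C/EBP-ATF elements, was in 0 of the 32 windows and in 2.9% of the tested genes. GAANNTTC (3 of 32, against 6.8% of tested genes), CACGTG (5 of 32, against 12%) and CCAAT on both strands (10 of 32, against 43.1%) completed the search. Matches describe letters only, and these shares were not tested.

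Promoters of 2 genes that the values below turn on show the patterns. Tomm22 was among the most abundant genes, and its CCGGAAG matches on opposite strands are in capitals (chr15:79670618-79670867, plus strand, the 250 bases before its start):
Tomm22: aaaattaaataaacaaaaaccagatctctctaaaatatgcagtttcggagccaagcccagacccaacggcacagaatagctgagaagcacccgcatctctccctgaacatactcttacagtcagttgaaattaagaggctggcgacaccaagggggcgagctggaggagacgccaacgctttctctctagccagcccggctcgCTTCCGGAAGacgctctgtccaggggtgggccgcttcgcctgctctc
Timm13 had the smallest p of the 36 genes. Capitals mark the NRF1 core and, nearer the start, a TTCNNGAA match (chr10:80900970-80901219, minus strand, written in the direction of the gene, with the 3′ end of Lmnb2 in its first bases):
Timm13: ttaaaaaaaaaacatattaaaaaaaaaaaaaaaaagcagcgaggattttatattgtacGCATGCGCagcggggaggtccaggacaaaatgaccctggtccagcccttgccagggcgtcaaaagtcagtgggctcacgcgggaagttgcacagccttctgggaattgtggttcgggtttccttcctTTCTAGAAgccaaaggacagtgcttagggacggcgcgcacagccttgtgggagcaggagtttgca

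The import genes ran from low to high abundance, and 4 of them held most of the counts. Because the libraries read tags at the 3′ end, a CPM counts tags and does not grow with transcript length, and levels are compared between genes on that scale; how well each 3′ end is annotated still limits such comparisons. Over all 6 libraries the means ran from 1.47 CPM for Timm10 to 143 CPM for Timm10b, percentile 4 to percentile 91.1 of tested genes. Timm10b, Tomm7, Tomm6 and Tomm22 together took 54.6% to 57.5% of the summed CPM of the 36 genes in KO-labelled and 51.7% to 54.4% in WT-labelled libraries. That sum was 916, 876 and 897 CPM in KO 1, 2 and 3, against 883, 885 and 862 CPM in WT 1, 2 and 3, so the groups overlapped. As a share of unscaled counts the genes took 0.0881%, 0.083% and 0.0877% in KO 1, 2 and 3. The shares were 0.0912%, 0.0896% and 0.0912% in WT 1, 2 and 3, so the KO-labelled libraries lay below on that scale. All tested genes also moved down on that scale, with a median log2 fold change of -0.098, against -0.179 for the 36 genes.

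**Figure D1:**
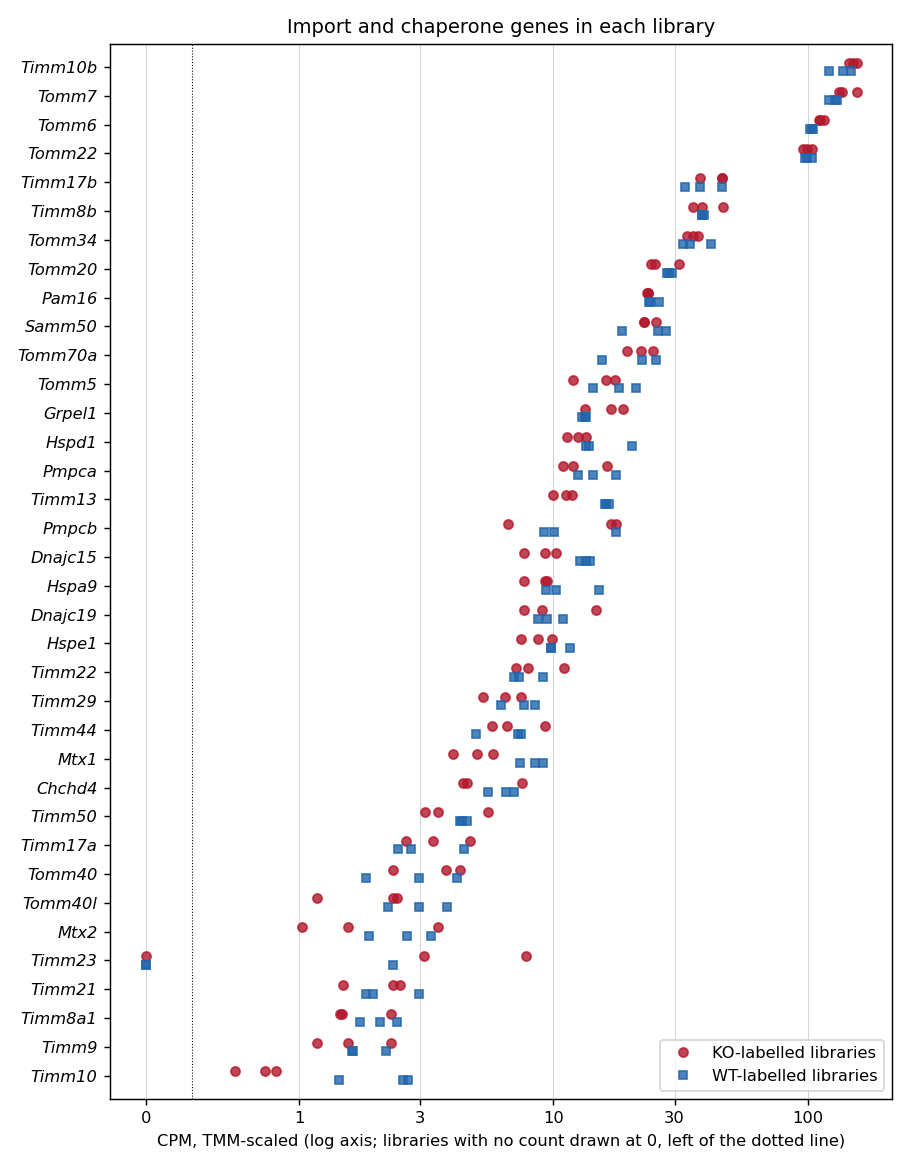
TMM-scaled CPM (log axis) of the 36 import and chaperone genes in each library, ordered by mean, with KO-labelled libraries as circles and WT-labelled libraries as squares. The means span 1.47 to 143 CPM, and for Timm23 3 libraries had no count.

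At the outer membrane, Tomm7, Tomm6 and the receptor Tomm22 were the most abundant of the TOM genes, and of the 8 TOM genes 0 passed the test (median log2 0.03). Tomm7, a small subunit that steadies the complex, had 156, 133 and 137 CPM in KO 1, 2 and 3, against 128, 131 and 122 CPM in WT 1, 2 and 3. All 3 KO-labelled values lay above the WT-labelled ones, by a margin that did not pass (log2 fold change 0.16, SE 0.09, adjusted p = 0.518). Tomm6, another small subunit, had 111, 116 and 112 CPM in KO 1, 2 and 3, against 104, 105 and 103 CPM in WT 1, 2 and 3. Its groups did not overlap either, and the difference was small (log2 fold change 0.12, SE 0.08, adjusted p = 0.619). Non-overlap with KO above held for 7.48% of all tested genes. Exons of Tomm6 overlap those of Gm21981 on the same strand (0 counts in all) and of Usp49 on the other (211 counts).

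Tomm22, the receptor at the centre of the complex, had 104, 99.6 and 95.7 CPM in KO 1, 2 and 3, against 104, 97.3 and 99.9 CPM in WT 1, 2 and 3, and its groups overlapped. Its 95% interval of the log2 fold change, unadjusted, was -0.18 to 0.16, the narrowest of the 36 genes after that of Tomm6 (-0.05 to 0.29). Tomm20, the receptor for presequences, averaged 26.9 ± 3.86 CPM in KO-labelled and 28.6 ± 0.651 CPM in WT-labelled libraries (SD, n = 3 each; log2 -0.09). Tomm70a, the receptor for carrier proteins that docks cytosolic chaperones, averaged 22.1 ± 2.52 CPM in KO-labelled and 21.1 ± 4.99 CPM in WT-labelled libraries (SD, n = 3 each; log2 0.06). Both receptors were thus within the spread of their replicates.

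Tomm40, the pore itself, was measured from few counts at 3.49 ± 1.02 CPM in KO-labelled and 2.99 ± 1.17 CPM in WT-labelled libraries (SD, n = 3 each), and its log2 interval of -0.61 to 1.07 is correspondingly wide. Tomm40l, a paralog of the pore, was of like abundance, at 1.98 ± 0.699 CPM in KO-labelled and 3 ± 0.778 CPM in WT-labelled libraries (SD, n = 3 each; log2 -0.58). The ratio of Tomm40 to Tomm40l was 1.78, 2.00 and 1.62 in KO 1, 2 and 3, against 0.484, 1.32 and 1.41 in WT 1, 2 and 3. These ratios did not overlap, but they rest on 8 to 34 counts per gene and library and were not tested. Tomm5, a small subunit, averaged 15.2 ± 2.93 CPM in KO-labelled and 17.9 ± 3.42 CPM in WT-labelled libraries (SD, n = 3 each; log2 -0.23). Tomm34, a cytosolic co-chaperone of Hsp70 and Hsp90 that binds precursors, averaged 35.4 ± 1.75 CPM in KO-labelled and 36.2 ± 4.76 CPM in WT-labelled libraries (SD, n = 3 each; log2 -0.03), and neither gene separated the groups.

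Of the SAM genes, the metaxin gene Mtx1 had the most negative log2 fold change, except without KO 1, where that of Mtx2 was -0.99 and that of Mtx1 -0.62. Mtx1 (chromosome 3, 89209081 to 89227088, minus strand, mm10) had 4.04, 5 and 5.8 CPM in KO 1, 2 and 3, against 8.46, 9.09 and 7.41 CPM in WT 1, 2 and 3. Every KO-labelled value was below every WT-labelled one, a 1.68-fold difference that did not pass (log2 fold change -0.75, SE 0.24, adjusted p = 0.193), with an adjusted p of 0.0992 to 0.471 over all settings run. Exons of Mtx1 overlap those of Gm43737 and Thbs3 on the other strand, with 75 and 6 counts in all, and without the strand setting such reads cannot be told apart. Its partner Mtx2 averaged 2.03 ± 1.3 CPM in KO-labelled and 2.62 ± 0.714 CPM in WT-labelled libraries (SD, n = 3 each; log2 -0.37), with KO 1 apart from KO 2 and KO 3. Samm50, which inserts barrel proteins, averaged 23.7 ± 1.53 CPM in KO-labelled and 24.1 ± 4.87 CPM in WT-labelled libraries (SD, n = 3 each; log2 -0.03), and its groups overlapped.

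Small TIM chaperones, which carry hydrophobic precursors across the intermembrane space, held both the most and the least abundant genes of the set. None of the 6 passed (median log2 -0.18). Timm10b, which works with the TIM22 complex, had 150, 156 and 146 CPM in KO 1, 2 and 3, against 138, 148 and 122 CPM in WT 1, 2 and 3, and the groups overlapped at WT 2 (log2 fold change 0.14, SE 0.09, adjusted p = 0.603). Its exons overlap Gm45799 on the same strand (36 counts in all) and Arfip2 on the other (306 counts). Timm9 and Timm10, which build the main hexamer, were near the limit of the filter. Timm10 (chromosome 2, 84826997 to 84830213, plus strand) had 6, 5 and 5 counts in KO 1, 2 and 3, against 21, 14 and 20 counts in WT 1, 2 and 3. The groups did not overlap and differed 3.14-fold (log2 fold change -1.65, SE 0.53, adjusted p = 0.203), while the interval of -2.79 to -0.51 shows how little these counts fix. Timm9 averaged 1.68 ± 0.566 CPM in KO-labelled and 1.82 ± 0.336 CPM in WT-labelled libraries (SD, n = 3 each; log2 -0.11).

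Timm13 (chromosome 10, 80899450 to 80900969, minus strand), partner of the Timm8 proteins, had 11.9, 11.2 and 9.93 CPM in KO 1, 2 and 3, against 15.9, 16.1 and 16.6 CPM in WT 1, 2 and 3. The KO-labelled values formed a separate lower group, 1.48-fold below, and still missed the threshold (log2 fold change -0.56, SE 0.16, adjusted p = 0.154). Its adjusted p ran from 0.0609, with total-count scaling, to 0.334, without WT 1. Timm8b averaged 40.2 ± 5.67 CPM in KO-labelled and 38.7 ± 0.434 CPM in WT-labelled libraries (SD, n = 3 each; log2 0.06), and its groups overlapped. Timm8a1, the X-linked gene whose human counterpart underlies a deafness and dystonia syndrome, was far lower at 1.74 ± 0.48 CPM in KO-labelled and 2.08 ± 0.344 CPM in WT-labelled libraries (SD, n = 3 each; log2 -0.26). The ratio of Timm8b to Timm8a1 was 15.5 to 32.1 in KO-labelled and 16.2 to 22.1 in WT-labelled libraries. Chchd4, the oxidoreductase that traps small TIM proteins by forming disulfide bonds, averaged 5.51 ± 1.77 CPM in KO-labelled and 6.35 ± 0.751 CPM in WT-labelled libraries (SD, n = 3 each; log2 -0.21).

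**Figure D2:**
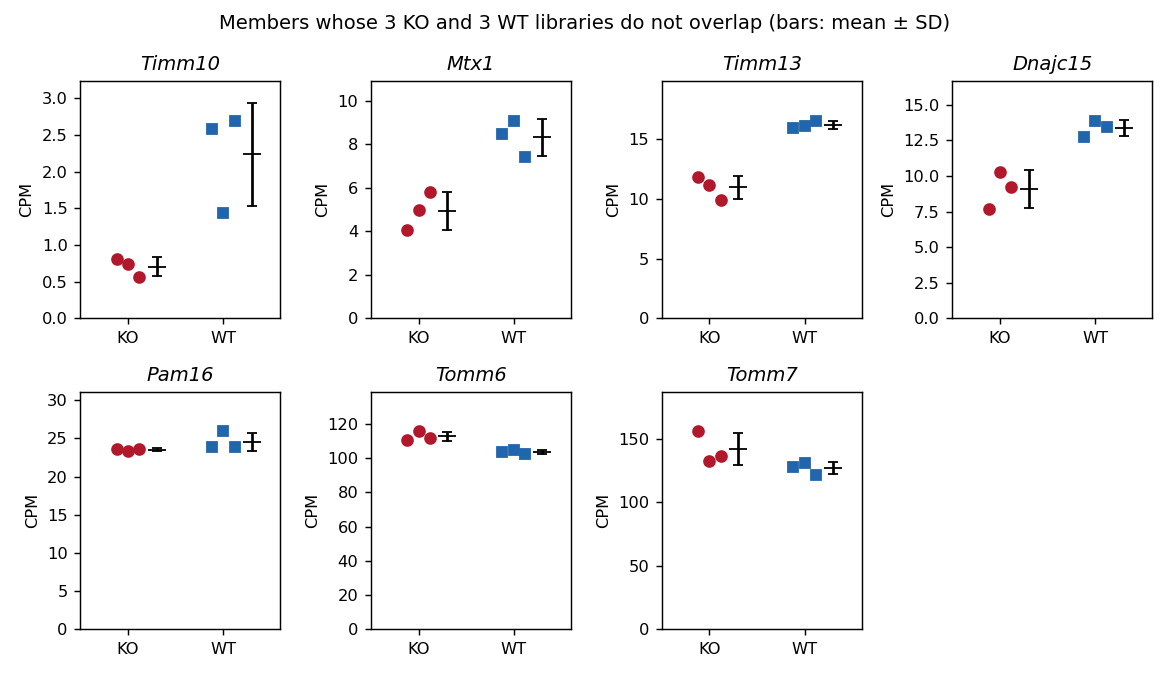
CPM of the 7 genes whose KO-labelled and WT-labelled libraries did not overlap, with each library as a point and the mean and SD (n = 3) beside it; axes start at 0. Timm10, Mtx1, Timm13, Dnajc15 and Pam16 were lower and Tomm6 and Tomm7 higher in the KO-labelled libraries, and none passed the test.

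Among inner membrane translocases, Timm23 had the greatest fold change of the set and its counts could not be tied to the gene. Timm23 (chromosome 14, 32180162 to 32201898, minus strand, mm10), the channel of the TIM23 complex, had 23, 0 and 70 counts in KO 1, 2 and 3, against 0, 23 and 0 counts in WT 1, 2 and 3. Libraries of each group thus stood at 0 and others did not (log2 fold change 2.11, SE 1.08, adjusted p = 0.49). Without KO 3 the log2 fold change was 0.89 and without WT 2, where every remaining WT-labelled library is at 0, the fitted value was 7.86 and is no measure of size. With no filter on low counts the same difference was called (log2 2.12, adjusted p = 0.00414). A single-exon copy, Gm10273 (chromosome 10, 59395632 to 59396757, plus strand), matches the 1173 bases of the Timm23 transcript at 1120 of 1121 aligned bases with 0 gaps. The difference within the aligned stretch is G145A (Timm23 base first, counted from the 5′ end of its transcript), 1029 bases from the 3′ end. The last 25 bases of this Timm23 transcript, the longest of the coding ones, lie beyond the alignment. Pooled over the coding transcripts of Timm23, 95.7% of the 50-base windows in the last 300 bases also occur in the copy. The Gm10273 row held 202, 150 and 170 counts in KO 1, 2 and 3, against 205, 213 and 191 counts in WT 1, 2 and 3.

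Summed over both rows, there were 225, 150 and 240 counts in KO 1, 2 and 3, against 205, 236 and 191 counts in WT 1, 2 and 3. On that sum, chosen after the data were seen, the level was 26.4 ± 4.15 CPM in KO-labelled and 25 ± 0.824 CPM in WT-labelled libraries (SD, n = 3 each), and the log2 fold change was 0.08 (SE 0.14, adjusted p = 0.892). The sum lay at the 63.8th percentile of tested genes, where the Timm23 row alone lay at the 11.9th. Pam16, which holds the J-protein of the motor in check, has a like copy, Gm9803 (chromosome 10, 43524084 to 43524646, plus strand), identical over 534 of 534 aligned bases, with the last 11 bases of the Pam16 transcript beyond the alignment. Here most counts were in the Pam16 row, 175, 159 and 212 counts in KO 1, 2 and 3, against 195, 254 and 177 counts in WT 1, 2 and 3, with 32, 37 and 52 counts in KO 1, 2 and 3, against 29, 61 and 25 counts in WT 1, 2 and 3 in the copy. Pam16 alone did not overlap between groups, narrowly (23.38 to 23.66 CPM in KO-labelled and 23.85 to 25.95 CPM in WT-labelled libraries), while the sum did (27.9 to 29.5 CPM in KO-labelled and 27.2 to 32.2 CPM in WT-labelled libraries; log2 -0.01, SE 0.13, adjusted p = 0.978).

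**Figure D3:**
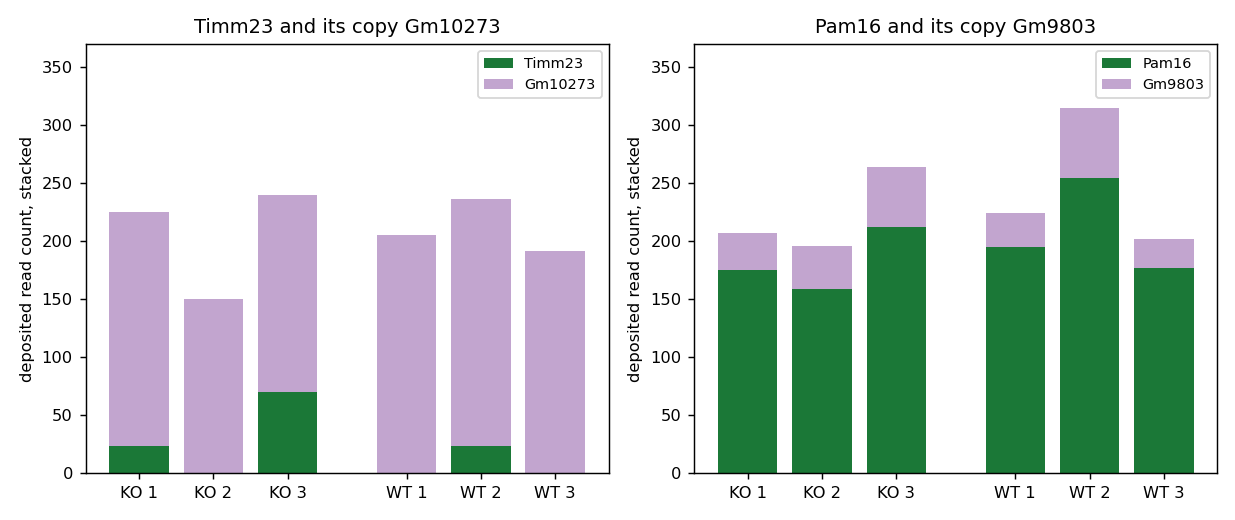
Deposited read counts per library, stacked, of Timm23 with its copy Gm10273 (left) and of Pam16 with its copy Gm9803 (right), KO-labelled libraries first. The Timm23 row holds 0 to 70 counts and its copy 150 to 213, while the Pam16 row holds 159 to 254 and its copy 25 to 61.

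The remaining TIM23 genes did not separate the groups. Timm17b was the abundant form of the Timm17 subunit, with 37.6, 45.9 and 45.9 CPM in KO 1, 2 and 3, against 46.2, 37.7 and 33 CPM in WT 1, 2 and 3. Timm17a, its paralog, averaged 3.57 ± 1.03 CPM in KO-labelled and 3.22 ± 1.07 CPM in WT-labelled libraries (SD, n = 3 each; log2 0.17). The ratio of Timm17b to Timm17a was 12.8 ± 4.02 in KO-labelled and 13.3 ± 5.72 in WT-labelled libraries (SD, n = 3 each), the same within its spread. Timm50, the receptor that hands precursors to the channel, averaged 4.06 ± 1.29 CPM in KO-labelled and 4.42 ± 0.146 CPM in WT-labelled libraries (SD, n = 3 each; log2 -0.13), and Timm21, which links TIM23 to TOM, was at log2 -0.09. For the TIM22 complex, the channel gene Timm22 was at 8.7 ± 2.06 CPM in KO-labelled and 7.82 ± 1.12 CPM in WT-labelled libraries (SD, n = 3 each; log2 0.14), and its subunit gene Timm29 was at log2 -0.20.

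In the import motor, Dnajc15 was lower in each KO-labelled library, and the other 5 genes lay on both sides of 0. Dnajc15 (chromosome 14, 77820681 to 77875125, minus strand), a J-protein known as a brake on respiratory complex I, had 7.68, 10.3 and 9.26 CPM in KO 1, 2 and 3, against 12.8, 13.9 and 13.5 CPM in WT 1, 2 and 3. The groups were apart by 1.47-fold without passing (log2 fold change -0.56, SE 0.18, adjusted p = 0.21), with an adjusted p of 0.097 to 0.453 over all settings run. Dnajc19, the J-protein of the motor itself, had 14.7, 7.65 and 9.04 CPM in KO 1, 2 and 3, against 8.71, 10.9 and 9.43 CPM in WT 1, 2 and 3, and its groups overlapped (log2 0.11). Exons of Dnajc19 overlap those of Fxr1 on the other strand, which held 903 counts against its own 490.

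Hspa9, mitochondrial Hsp70 (mortalin) and the core of the motor, had 9.44, 7.65 and 9.26 CPM in KO 1, 2 and 3, against 9.32, 10.2 and 15.1 CPM in WT 1, 2 and 3. WT 3 was the highest library and the groups overlapped (log2 fold change -0.38, SE 0.22, adjusted p = 0.549). Grpel1, which exchanges the nucleotide of Hspa9, had 18.7, 13.4 and 16.9 CPM in KO 1, 2 and 3, against 13.5, 13 and 13.3 CPM in WT 1, 2 and 3. KO 1 and KO 3 were above all WT-labelled libraries and KO 2 was not (log2 fold change 0.30, SE 0.17, adjusted p = 0.545). The exons of Grpel1 overlap those of Tada2b on the other strand by 411 bases. Tada2b held 719 counts in all, against 717 for Grpel1. Timm44, which tethers Hspa9 to the channel, averaged 7.2 ± 1.84 CPM in KO-labelled and 6.56 ± 1.37 CPM in WT-labelled libraries (SD, n = 3 each; log2 0.14).

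In the matrix, the chaperonin pair whose shared heat shock letters are printed above was lower on average in the KO-labelled libraries, without passing. Hspd1 had 12.5, 11.3 and 13.4 CPM in KO 1, 2 and 3, against 13.9, 13.4 and 20.4 CPM in WT 1, 2 and 3. KO 3 and WT 2 met at 13.4 CPM, so the groups touched (log2 fold change -0.34, SE 0.19, adjusted p = 0.541). Hspe1 had 9.84, 8.68 and 7.48 CPM in KO 1, 2 and 3, against 9.81, 9.81 and 11.6 CPM in WT 1, 2 and 3, and KO 1 lay within the WT-labelled range (log2 fold change -0.26, SE 0.20, adjusted p = 0.681). Without WT 3 the log2 fold changes were -0.13 for Hspd1 and -0.18 for Hspe1, and without KO 3 they were -0.41 and -0.17. The ratio of Hspd1 to Hspe1 was 1.46 ± 0.29 in KO-labelled and 1.51 ± 0.213 in WT-labelled libraries (SD, n = 3 each). Their first exons overlap by 112 bases on opposite strands, far from the 3′ ends that are read. Pmpca and Pmpcb, the subunits of the peptidase that removes presequences, were at 13.1 ± 2.86 CPM in KO-labelled and 14.8 ± 2.63 CPM in WT-labelled libraries and at 13.7 ± 6.14 CPM in KO-labelled and 12.3 ± 4.65 CPM in WT-labelled libraries (SD, n = 3 each; log2 -0.18 and 0.18). The exons of Pmpca overlap those of Inpp5e on the other strand by 874 bases. Inpp5e held 536 counts in all, against 670 for Pmpca. Relative to its mean, Pmpcb had the largest SD in KO-labelled libraries of the 20 genes above 10 CPM, at 6.62 CPM in KO 2 and 16.9 and 17.6 CPM in KO 1 and KO 3.

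**Figure D4:**
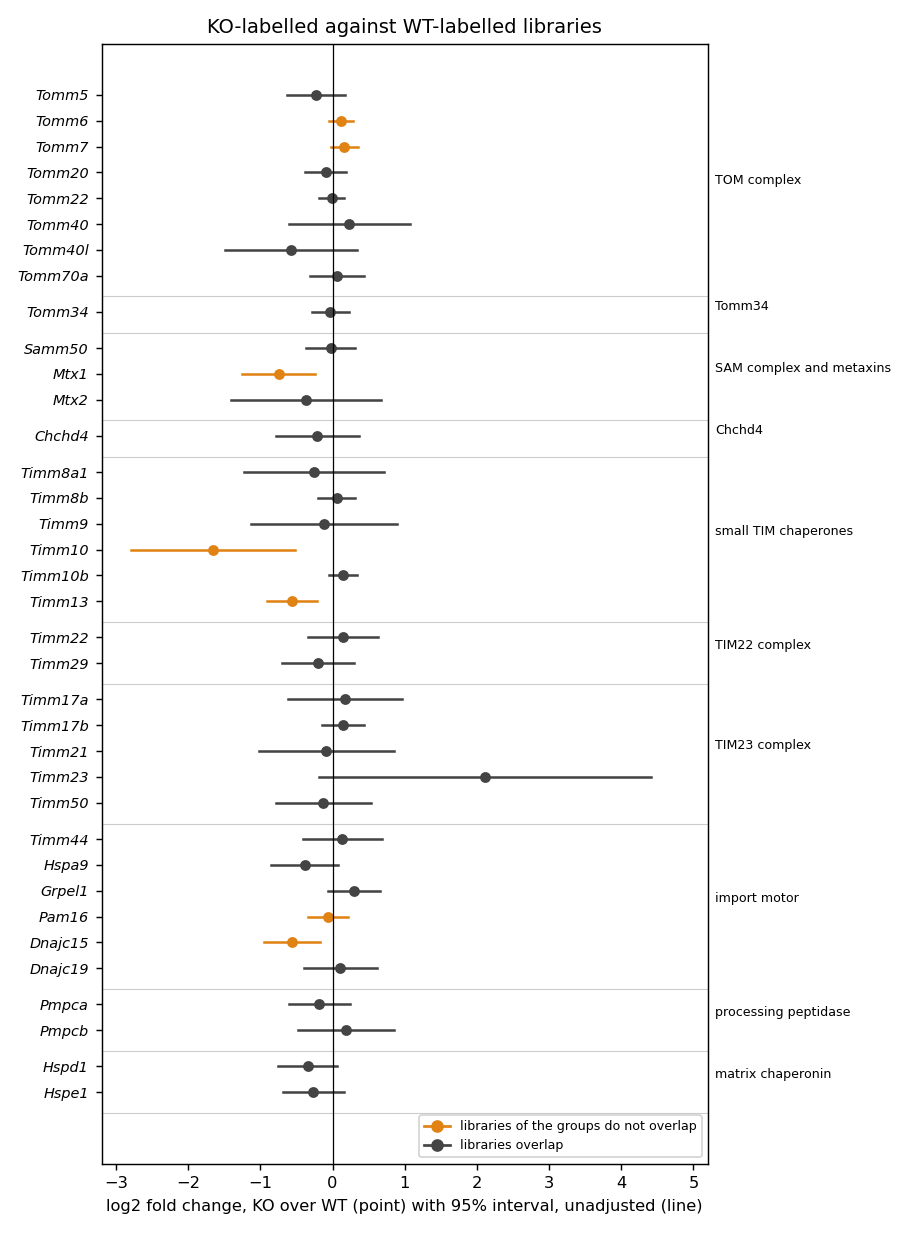
Log2 fold change, KO over WT, of each gene (point) with its unadjusted 95% interval (line), grouped by role; orange marks genes whose libraries did not overlap. Intervals are narrow for Tomm22 (-0.18 to 0.16) and wide for Timm10 (-2.79 to -0.51) and Timm23 (-0.19 to 4.41).

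Intervals were narrower for the abundant genes. The 95% interval lay within a 1.5-fold change in either direction for 11 of the 36 genes (30.6%, against 50.8% of all tested genes) and within a 2-fold change for 27 (75%, against 73.5%). The 20 genes at 10 CPM or more on average had a median SE of 0.16 and log2 fold changes of -0.56 to 0.30 (median -0.02, against 0.04 for the 5935 tested genes at that level). The 16 genes under 10 CPM had a median SE of 0.38 and a median of -0.17, against -0.10 for 4462 tested genes. KO 2 was the lowest of the 6 libraries for 11 of the 36 genes (30.6%), against 19.7% of all tested genes, and it had the fewest genes with a count, 14732 against 14977 to 15664 in the other libraries. The 4 genes with an unadjusted p under 0.05, Timm13, Mtx1, Timm10 and Dnajc15, were all lower in the KO-labelled libraries. They make up 11.1% of the 36 genes. Of all tested genes 6.35% had such a p and were lower, and 5.03% had such a p and were higher. The fall of the macrophage markers moved with the same split of the libraries, and its part in these values was not tested.

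**Figure D5:**
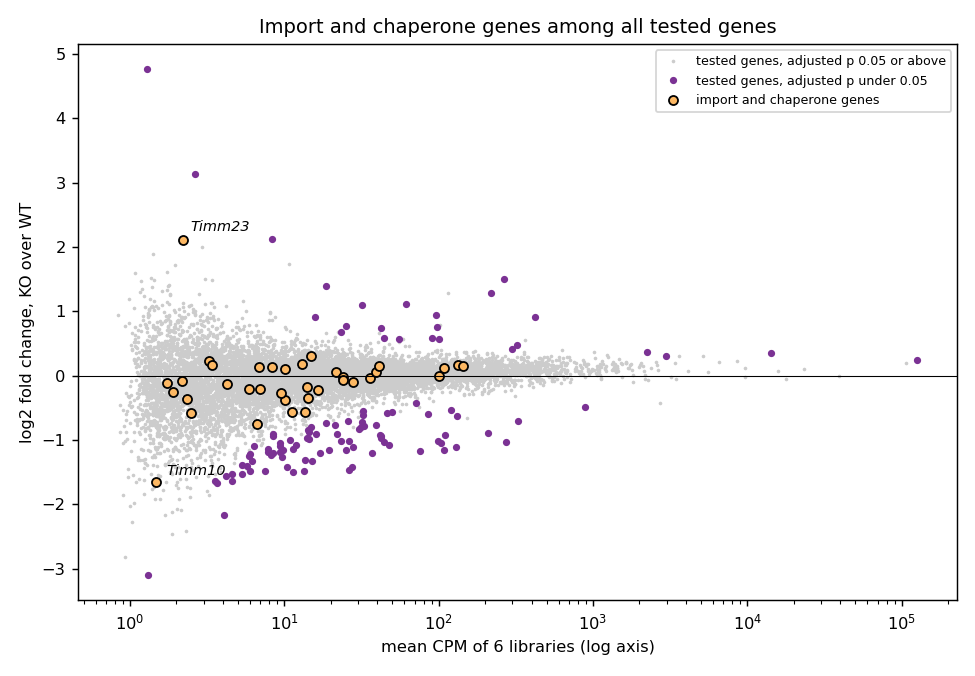
Log2 fold change, KO over WT, against mean CPM (log axis) for all 10397 tested genes, with the 107 called genes in purple and the 36 import and chaperone genes in orange. The import genes lie among the uncalled genes, with Timm23 (2.11) and Timm10 (-1.65) farthest from 0, both at low levels.

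Other genes of the pathway were no clearer. Of 38 further import, processing and quality control genes 33 were tested, 0 were called and 23 lay below 0 (median log2 -0.11). The 4 with the smallest p were Pitrm1 (-1.73, SE 0.57), which degrades freed presequences, the chaperone gene Trap1 (-0.71, SE 0.27), the protease gene Lonp1 (-0.54, SE 0.27) and the MICOS gene Apool (-0.70, SE 0.38), with an adjusted p of at least 0.213. Pitrm1 averaged 0.656 ± 0.38 CPM in KO-labelled and 2.21 ± 0.537 CPM in WT-labelled libraries (SD, n = 3 each). Trap1 averaged 3.85 ± 0.891 CPM in KO-labelled and 6.31 ± 0.454 CPM in WT-labelled libraries (SD, n = 3 each). Neither gene overlapped between the groups. The same held for 4 of the 33 tested genes (12.1%), all with KO below. Of all tested genes 16.8% did not overlap, 9.32% with KO below. Grpel2, the paralog of Grpel1, was at 3.53 ± 0.272 CPM in KO-labelled and 2.7 ± 1.24 CPM in WT-labelled libraries (SD, n = 3 each), and Tomm20l and Timm8a2 had 0 counts in every library.

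Among cytosolic chaperones that keep precursors unfolded, 0 of 15 genes were called (median log2 -0.08), and 3 had an unadjusted p under 0.05. The libraries of the groups did not overlap for 8 of the 15 (53.3%, against 16.8% of all tested genes), with KO above for 3, Hspa8 among them, and below for 5. Hspa8, the constitutive Hsp70, was at 258 ± 5.82 CPM in KO-labelled and 238 ± 10.8 CPM in WT-labelled libraries (SD, n = 3 each). The stress-induced and near-identical genes Hspa1a (-1.61, SE 0.48) and Hspa1b (-0.95, SE 0.49), with St13 (-0.40) and Hspa4 (-0.26), had the smallest p, and the adjusted p was at least 0.168. Of 11 regulators and targets of the mitochondrial stress response 0 were called (median log2 0.01). Atf4, whose protein drives that response, was at 171 ± 17.8 CPM in KO-labelled and 161 ± 2.33 CPM in WT-labelled libraries (SD, n = 3 each), and Chac1, one of its targets, had the smallest p (log2 0.53, adjusted p = 0.379). By p, Cebpb (0.24), Atf4 (0.08) and Trib3 (0.28) followed. Of 12 regulators of mitochondrial gene expression 7 were tested and 0 called (median log2 0.07), with Tfb2m at -0.71, Nrf1 at 0.21, Tfam at 0.31 and Yy1 at 0.07.

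Markers of dividing precursors, cells that carry more mitochondria than mature neutrophils, gave 0 calls among 20 genes, and 12 of the 20 lay below 0. Their summed level was 819 to 887 CPM in KO-labelled and 764 to 833 CPM in WT-labelled libraries. More than 50% of it was H2afz, which averaged 492 CPM in KO-labelled and 430 CPM in WT-labelled libraries. H2afz was the only gene of this list without overlap, so the sum says little of the other genes. The azurophil granule list gave 0 calls among 8 genes (121 to 141 CPM in KO-labelled and 138 to 154 CPM in WT-labelled libraries). Calr, which averaged 75.9 CPM in KO-labelled and 82.5 CPM in WT-labelled libraries, held most of that sum. In this list 2 genes lay above 0 and 6 below. Of the other cell type lists, 1 of 10 tested monocyte and dendritic cell genes (Irf8) was called lower. So were 3 of 8 platelet genes (Ppbp, Pf4, Itga2b) and 1 of 4 eosinophil and basophil genes (Ccr3), against 0.789% of all tested genes. In these lists 9, 7 and 2 genes lay below 0, in that order. Of the plasma and B cell genes 3 of 10 were called higher (Igkc, Igha, Jchain), against 0.24% of all tested genes. In that list 5 genes lay above 0 and 5 below, and Vpreb3 (log2 -1.41) and Cd79b (-0.76) were lower without overlap. The summed level was 574, 1326 and 549 CPM in KO 1, 2 and 3, against 345 to 404 CPM in WT-labelled libraries. Igkc and Igha held most of that sum. Of the mature neutrophil genes 2 of 15 were called higher (S100a8, Retnlg), against 0.24% of all tested genes. The part of these cell types in the values above was not tested. The erythroid (9 tested) and T and NK cell (3 tested) lists had 0 calls.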

How the data were processed

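RNA of 6 samples was measured, and the authors deposited 1 table of raw counts for each Ensembl identifier as whole numbers. The submitters' processing notes name RSEM 1.2.3, DESeq2 and mm10 without saying what each was used for. An aligner, annotation release, strand setting or filter is not stated there. How reads shared by near-identical genes were split is not known, and such counts are uncertain. Depth and the worth of 1 count are given with the results and limit genes under about 10 CPM most.

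Columns were matched to samples by name. Symbols, positions and exon overlaps came from GENCODE vM21 (GRCm38, the assembly mm10 names), which named 51596 of 51789 identifiers. Promoter windows came from RefSeq (GRCm38.p6). Transcript copies were found as shared stretches of 50 bases in the last 300 bases of GENCODE transcripts and aligned locally.

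All 6 libraries were fitted with edgeR 4.0.16 in R 4.3.3 (glmQLFit, glmQLFTest) with TMM factors, the default filterByExpr filter (minimum count 10, minimum total 15), group as the only term and Benjamini-Hochberg adjustment over 10397 genes at 0.05; all 36 members passed the filter. The SE is the log2 fold change divided by the square root of F, and intervals use the degrees of freedom of the test. Tested on simulated counts of 10397 genes for the KO against WT comparison, the procedure found 50% of the genes simulated at a 1.5-fold increase, 78% at 2-fold, 86% at 3-fold and 58% of those set to 0.5 of their level; 7 of 143 calls were unchanged genes. Alternatives were DESeq2 1.42.0, limma-voom (limma 3.58.1), RLE, upper-quartile and no factors, other filters and thresholds, the replicate block, each library left out and, added after the data were seen, sums over near-identical copies. Replicates differed by more than sampling noise (chi-square per degree of freedom 4.12 to 6.79). The members and lists were chosen with earlier results of these data known. The text names every member, the 4 smallest p of each pathway list, and Snph. Of the paralogs and copies of members only some are named. Other genes named were chosen after their values were seen.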

Additional observations from a re-analysis of the deposited data

How the results depend on the processing

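None of the 36 genes was called under any alternative, with the exception of Timm23 with no filter on low counts (1 call, log2 2.12, adjusted p = 0.00414); summed with its copy its log2 fold change was 0.08. Of 530 values of single genes under alternatives, 505 kept their direction and side of the threshold, 24 changed sign and 1 gained a call; 22 genes never changed sign. None of the values that changed sign was called: with total counts Tomm70a was at -0.043 and Timm8b at -0.044, and without 1 library the log2 fold change ran from -0.041 to 0.018 for Tomm22, from -0.017 to 0.533 for Tomm40, from -0.114 to 0.224 for Tomm70a, from -0.102 to 0.081 for Tomm34, from -0.176 to 0.086 for Samm50, from -0.067 to 0.141 for Timm8b, from -0.393 to 0.072 for Timm9, from -0.06 to 0.271 for Timm22, from -0.088 to 0.463 for Timm17a, from -0.218 to 0.153 for Timm21, from -0.412 to 0.036 for Timm50, from -0.098 to 0.271 for Timm44, from -0.213 to 0.275 for Dnajc19 and from -0.05 to 0.525 for Pmpcb. The median of the 36 genes was -0.18 with total counts, where the median of all genes was -0.10, and -0.098 to -0.052 without 1 library. The median of the further import genes was -0.14 with upper-quartile factors, -0.22 with total counts, -0.072 with at least 5 CPM in 3 libraries and -0.179 to -0.074 without 1 library. Over all genes 107 were called in the main fit. There were 162 with total counts, 287 with no filter, 174 with DESeq2, 182 at an adjusted p under 0.1 and 46 under 0.01. Without KO 1, 2 or 3 there were 67, 61 and 97, and without WT 1, 2 or 3 there were 57, 49 and 62. The cause of these shifts was not tested. With the replicate block 92 genes and 0 of the 36 were called, and the median of the 36 was -0.078. The deviations of same-numbered libraries correlated at -0.03, -0.01 and -0.13. Over all pairs of a KO-labelled and a WT-labelled library the values ran from -0.17 to 0.183 (KO 1 with WT 3). Same-numbered libraries thus did not stand out, but with 3 libraries in each group such values cannot settle whether the samples were paired. Depth limits the 16 genes under 10 CPM, whose median SE was 0.38 on the log2 scale.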
